A study of Mus musculus with 19 samples.

Results

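Non-muscle actin and its partners were followed as a set of 9 genes in liver RNA, namely *Actb*, *Actg1*, *Tmsb4x*, *Tmsb10*, *Pfn1*, *Cfl1*, *Coro1c*, *Vcl* and *Myl12a*. The genes were chosen by name out of the 31053 genes of the count table, with earlier results of these data known, so that their levels in all 3 groups are given as descriptions and carry no test. Liver RNA came from male C57BL6J mice that were 6 to 8 weeks old at the start. The PBS group (5 libraries) received the solvent of the hepatotoxin thioacetamide (TAA), as vehicle, and no vector is named for it in the labels. The AAV-GFP group (7 libraries, TAA_GFP in the labels) received TAA at rising doses for 12 weeks and, at week 10, the vector AAV8 TBG eGFP, which expresses green fluorescent protein. The AAV-miR-34b/c group (7 libraries, TAA_miR in the labels) received the same TAA course and, in place of the control vector, AAV8 vectors for miR-34b and miR-34c together. The livers were collected 4 weeks after vector injection. Both vectors carried the TBG promoter, which is active in hepatocytes, whereas the RNA was from whole liver. TAA and a vector differed together between PBS and the other groups, and their parts in a difference from PBS cannot be told apart. The labels call the replicates biological, without saying more of the animals. The 3 comparisons share libraries, since each group enters 2 of them.

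Actin monomers assemble into filaments that give cells their shape, their contacts and their contractile force. Profilin loads monomers with ATP and feeds filament growth, β-thymosins hold monomers in reserve, cofilin severs old filaments, coronins act at branched networks, vinculin ties filaments to integrin and cadherin contacts, and myosin light chains switch on the motor that pulls on filaments. Every liver cell uses these proteins. Hepatic stellate cells, the collagen-producing cells of fibrosis, build thick contractile bundles when activated, and migrating leukocytes are rich in thymosin β4, profilin and cofilin. In bulk RNA, fewer cells of a type and less RNA per cell cannot be told apart.

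Total counts were 2214073 to 5208405 per library, and expression is given as CPM (counts scaled to a common library size after TMM normalization). The 10 hepatocyte markers of a list were all detected, at a summed 57690 to 90060 CPM, which fits the label of whole liver. The libraries were not uniform within groups. Mitochondrial genes took 3.73% to 5.65% of counts in PBS. In the AAV-GFP group, the share was 7.85% to 9.41% in libraries 1 to 4 and 4.83% to 5.50% in libraries 5 to 7. In the AAV-miR-34b/c group, it was 3.71% and 3.73% in libraries 1 and 2 and 8.21% to 10.8% in libraries 3 to 7. Summed monocyte and neutrophil markers reached 2061 and 2065 CPM in these AAV-miR-34b/c libraries 1 and 2, against 75.3 to 456 CPM in the other 5 and 20.5 to 88.8 CPM in PBS and AAV-GFP. In 6 of 52 within-group pairs, the counts were closer than in the rest (PBS 1 and 4, PBS 3 and 5, AAV-GFP 1 and 2, AAV-miR-34b/c 1 and 2, 3 and 4, and 5 and 7). They were analysed as separate samples, and values with each such pair summed are given with the counts of calls.

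Among all genes tested, edgeR's quasi-likelihood test called 12.7% at an adjusted p under 0.05 between AAV-GFP and PBS (7.54% higher and 5.19% lower). It called 3.36% in AAV-miR-34b/c against AAV-GFP (1.95% higher and 1.42% lower) and 21.9% in AAV-miR-34b/c against PBS (12.2% higher and 9.75% lower). Of the 9 actin genes, 8 passed the filter on low counts in each comparison, and *Actg1* did not. The fit called 4 of the 8 between AAV-GFP and PBS (*Actb*, *Tmsb10*, *Cfl1* and *Coro1c*, all higher), 2 between the TAA groups (*Cfl1* higher and *Vcl* lower), and 4 for AAV-miR-34b/c against PBS (*Actb*, *Cfl1* and *Coro1c* higher, *Vcl* lower). Since the genes were listed with these comparisons in view, nothing is read from these counts. The median log2 fold changes of the 8 were 0.42, -0.26 and 0.09 in this order of comparisons, beside -0.01, -0.01 and 0.02 over all genes tested.

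**Figure D1:**
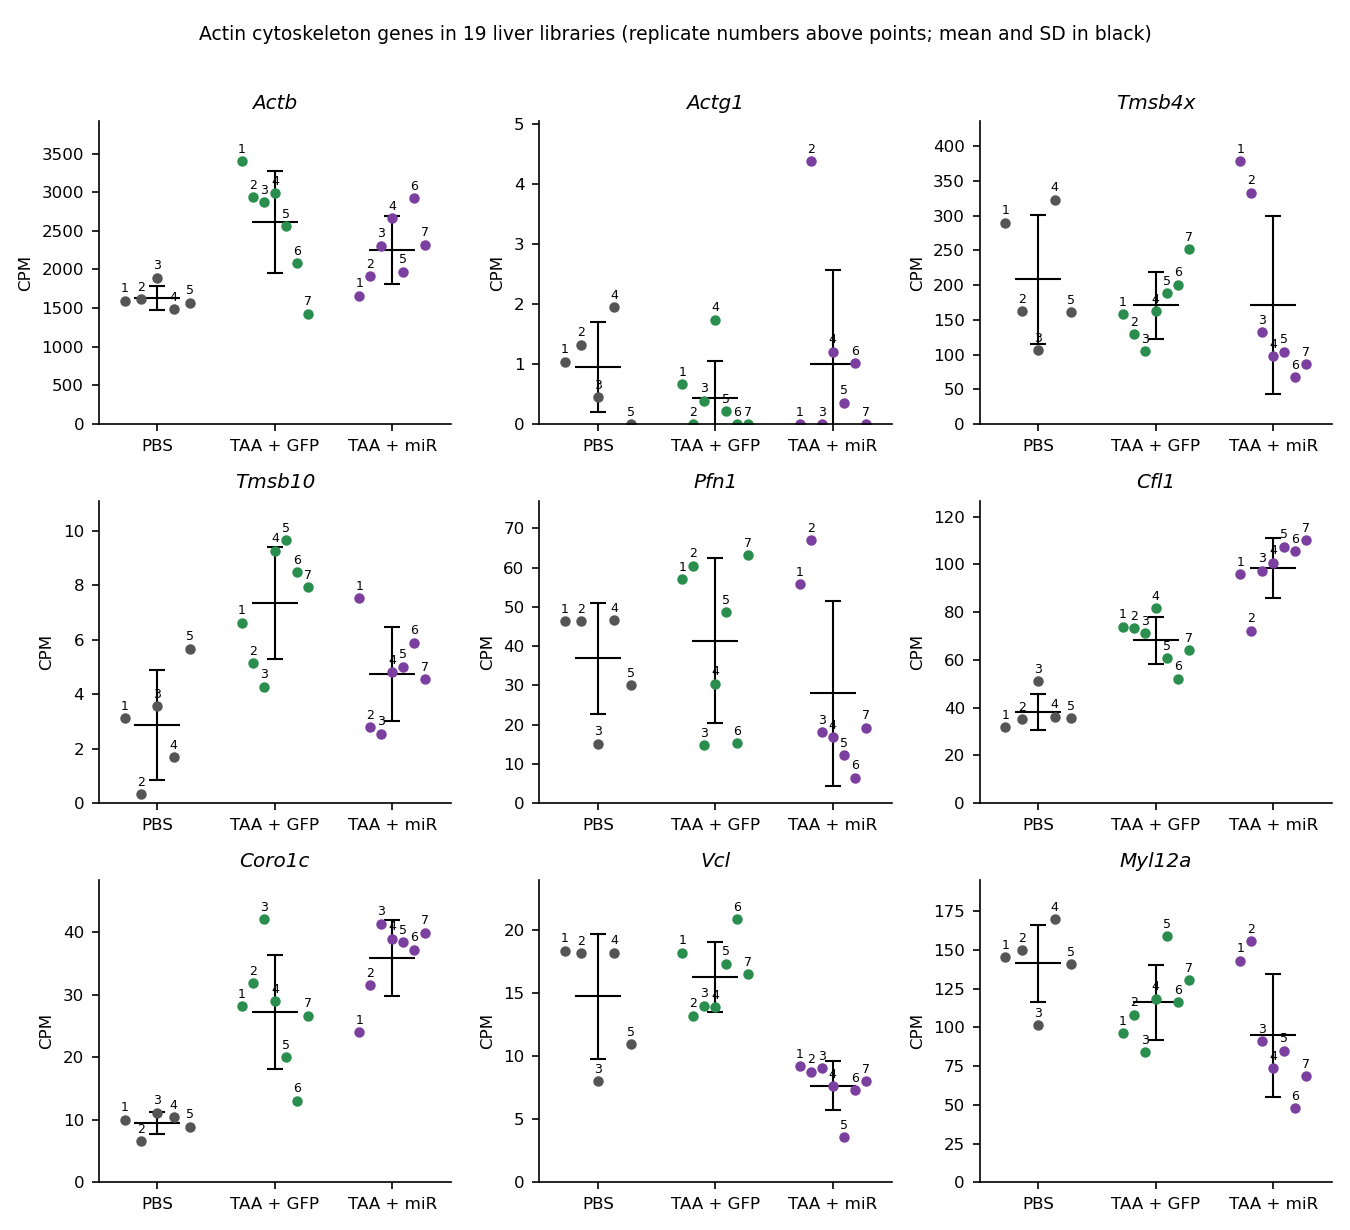
CPM of each of the 9 actin cytoskeleton genes in every library, by group (PBS, TAA + GFP for the AAV-GFP group, TAA + miR for the AAV-miR-34b/c group), with the replicate number above each point and the group mean ± SD in black. *Cfl1* and *Coro1c* lie higher in both TAA groups than in every PBS library, and *Vcl* lies lower in every AAV-miR-34b/c library than in every AAV-GFP library.

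The actins come first. *Actb* (ENSMUSG00000029580, chr5:142903115-142906754, minus strand, GRCm38) encodes β-actin, the main non-muscle actin. Its level was 1596, 1616, 1894, 1485 and 1570 CPM in PBS libraries 1 to 5. In AAV-GFP, it ran from 1429 (library 7) over a median of 2868 to 3405 CPM (library 1). In AAV-miR-34b/c, it ran from 1659 (library 1) over 2306 to 2925 CPM (library 6). The PBS libraries were tight around their mean of 1632 ± 155 CPM (SD, n = 5), whereas the AAV-GFP mean of 2610 ± 661 CPM (SD, n = 7) covered a wide range. Of the 7 AAV-GFP libraries, 6 were above all PBS libraries and 1, library 7, was below them. Of the 7 AAV-miR-34b/c libraries, 6 were above all PBS libraries, and both TAA groups overlapped. The fitted log2 fold change was 0.68 (standard error 0.20; 1.60-fold) for AAV-GFP against PBS, 0.47 (0.16; 1.38-fold) for AAV-miR-34b/c against PBS and -0.23 (0.19) between the TAA groups.

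The level of *Actb* went with the mitochondrial share of the library. Over the 19 libraries, Pearson's r between log2 CPM and log2 share was 0.77, and it was 0.65 with group means removed; libraries share depth and composition, so this is a description. With the share as a covariate, the log2 fold change of *Actb* against PBS was 0.26 (0.26) for AAV-GFP and 0.20 (0.16) for AAV-miR-34b/c, and neither was called in that fit. With 1 library left out, the call for AAV-GFP against PBS was lost without PBS 1, 4 or 5 or AAV-GFP 1, 2, 3 or 4. For AAV-miR-34b/c against PBS, it was lost without PBS 1, 2, 4 or 5 or AAV-miR-34b/c 3, 4, 5, 6 or 7. The log2 fold changes in these fits stayed between 0.61 and 0.79 and between 0.40 and 0.53, respectively.

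*Actg1* (ENSMUSG00000062825, chr11:120345690-120348542, minus strand) encodes γ-actin, which differs from β-actin at a few amino acids. The table gives it 0 to 11 counts per library, against 3872 to 14383 counts of *Actb*. It had no count in 7 of the 19 libraries, where a count of 0 allows up to 0.784 to 1.24 CPM of the total count, an allowance for counting error only. The 50-base windows in the last 400 bases of its longest annotated transcript were searched in all other annotated genes, and 0 of 351 occurred there. Why the table holds so few *Actg1* counts was not tested, and its levels are not compared further.

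The β-thymosins hold actin monomers and keep them from assembling. *Tmsb4x* (chrX:167207093-167209315, minus strand), the abundant member in blood cells, had 289.5, 162, 106, 323 and 161 CPM in PBS libraries 1 to 5. It ran from 105 over 162 to 251 CPM in AAV-GFP and from 67.7 over 104 to 379 CPM in AAV-miR-34b/c. Libraries 1 and 2 of AAV-miR-34b/c, at 379 and 333 CPM, were above every other library, and the 4 lowest of the series were libraries 4, 5, 6 and 7 of the same group. The group means were 208 ± 93.0, 171 ± 48.2 and 171 ± 128 CPM (SD, n = 5, 7 and 7), and all groups overlapped.

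*Tmsb10* (chr6:72957347-72958748, minus strand) rested on few counts, 1 to 44 per library, and passed the filter through the TAA groups, where it was high. Its level was 3.12, 0.331, 3.56, 1.70 and 5.68 CPM in PBS libraries 1 to 5, 4.28 to 9.66 CPM in AAV-GFP (median 7.93) and 2.55 to 7.54 CPM in AAV-miR-34b/c (median 4.82). In AAV-GFP, 5 of 7 libraries were above all PBS libraries. The fitted log2 fold changes were 1.41 (standard error 0.42) for AAV-GFP against PBS, 0.78 (0.46) for AAV-miR-34b/c against PBS and -0.64 (0.28) between the TAA groups. Without 1 library, the value for AAV-GFP against PBS ran from 1.12 to 1.80, and its call was lost without PBS 1, 2 or 4 or AAV-GFP 4 or 5. Since the filter let *Tmsb10* through by the groups where it was high, no weight is put on that call. Of the 50-base windows near its 3′ end, 78.9% also occur in another annotated gene, so that reads of *Tmsb10* could be lost or split. The annotated gene that shares most of these windows, *Gm9844* (60.1%), had 1 count in all libraries together.

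*Pfn1* (chr11:70651850-70654644, minus strand) encodes profilin 1, which charges monomers with ATP and delivers them to growing filament ends. Its level was 46.5, 46.3, 15.1, 46.7 and 30.0 CPM in PBS libraries 1 to 5. It ran from 14.8 over 48.8 to 63.1 CPM in AAV-GFP and from 6.51 over 18.1 to 67.0 CPM in AAV-miR-34b/c. Every group held both high and low libraries. Libraries 1 and 2 of AAV-miR-34b/c (55.8 and 67.0 CPM) stood far from libraries 3 to 7 (6.51 to 19.3 CPM). The group means were 36.9 ± 14.1, 41.4 ± 21.0 and 27.97 ± 23.5 CPM (SD), and the groups overlapped in every comparison.

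*Cfl1* (ENSMUSG00000056201, chr19:5490455-5495201, plus strand) encodes cofilin 1, the non-muscle cofilin, which severs and disassembles aged filaments. Its level was 31.9, 35.1, 51.2, 36.2 and 35.7 CPM in PBS libraries 1 to 5. In AAV-GFP, it ran from 52.2 (library 6) over a median of 71.3 to 81.8 CPM (library 4), so that the lowest library lay just above the highest of PBS. In AAV-miR-34b/c, it ran from 72.2 (library 2) over 101 to 110.2 CPM (library 7), and 6 of the 7 were above all AAV-GFP libraries. The group means formed a series of 38.0 ± 7.54, 68.2 ± 9.82 and 98.5 ± 12.7 CPM (SD, n = 5, 7 and 7). The log2 fold change was 0.85 (standard error 0.17; 1.80-fold) for AAV-GFP against PBS, 0.52 (0.14; 1.44-fold) between the TAA groups and 1.38 (0.16; 2.60-fold) for AAV-miR-34b/c against PBS.

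Libraries of AAV-GFP did not overlap with those of PBS for *Cfl1*, and neither did those of AAV-miR-34b/c. Groups did not overlap for 4.79% of all genes tested between AAV-GFP and PBS (2.59% higher and 2.19% lower) and for 7.78% between AAV-miR-34b/c and PBS (3.96% higher and 3.82% lower). Without 1 library, the log2 fold change of *Cfl1* against PBS ran from 0.80 to 0.98 for AAV-GFP and from 1.32 to 1.51 for AAV-miR-34b/c. Between the TAA groups it ran from 0.46 to 0.58, and the call was lost without any 1 library other than AAV-GFP 4 and AAV-miR-34b/c 2. With the mitochondrial share as a covariate, the log2 fold change was 0.62 for AAV-GFP against PBS, no longer called, 1.24 for AAV-miR-34b/c against PBS and 0.52 between the TAA groups.

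*Coro1c* (ENSMUSG00000004530, chr5:113842436-113908758, minus strand) encodes coronin 1C, a coronin of cell edges and migrating cells that acts on branched filaments. It had 10.05, 6.62, 11.1, 10.5 and 8.92 CPM in PBS libraries 1 to 5. In AAV-GFP, it ran from 13.1 (library 6) over 28.2 to 42.1 CPM (library 3), and in AAV-miR-34b/c from 24.0 (library 1) over 38.4 to 41.3 CPM (library 3). Both TAA groups were above every PBS library, and they overlapped with each other. Its difference from PBS was the largest among the 8 genes, at 1.53 (standard error 0.26; 2.88-fold) on the log2 scale for AAV-GFP and 1.93 (0.20; 3.80-fold) for AAV-miR-34b/c. Between the TAA groups it was 0.39 (0.21). Without 1 library, the log2 fold change of *Coro1c* against PBS ran from 1.40 to 1.65 for AAV-GFP and from 1.821 to 2.004 for AAV-miR-34b/c. With the mitochondrial share as a covariate, the log2 fold change was 0.92 (0.34) for AAV-GFP, no longer called, and 1.71 (0.22) for AAV-miR-34b/c.

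Within the libraries of low mitochondrial share, AAV-GFP libraries 5 to 7 had 20.0, 13.1 and 26.7 CPM of *Coro1c*, all above the 11.1 CPM of the highest PBS library. The same libraries had 60.8, 52.2 and 64.1 CPM of *Cfl1*, also above all of PBS. In a fit of these 3 against PBS, the log2 fold changes were 1.09 for *Coro1c* and 0.65 for *Cfl1*, neither of them called. In a fit of AAV-miR-34b/c libraries 1 and 2 against PBS, they were 1.56 for *Coro1c* and 1.16 for *Cfl1*. The levels of *Coro1c* and *Cfl1* followed each other over the 19 libraries (r = 0.92), and less so with group means removed (r = 0.59). Summed cholangiocyte markers were 23.1 to 45.0 CPM in PBS, 61.0 to 106 CPM in AAV-GFP (median 79.5) and 54.5 to 126 CPM in AAV-miR-34b/c (median 61.3), with all 7 markers detected and *Cftr* at 0 in PBS. Their r over the libraries was 0.74 with *Coro1c* and 0.64 with *Cfl1*, and 0.26 and 0.03 with group means removed. Between the TAA groups the list did not move as one, since mean *Sox9* was 34.3 CPM in AAV-GFP and 48.7 CPM in AAV-miR-34b/c, whereas *Krt19* was 3.09 and 1.09 CPM and *Epcam* 3.58 and 1.09 CPM. Their part in the difference was not tested.

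*Vcl* (ENSMUSG00000021823, chr14:20929398-21033676, plus strand) encodes vinculin, which strengthens focal adhesions and cell junctions under tension. It rested on 10 to 79 counts per library. Its level was 18.4, 18.2, 8.01, 18.2 and 10.95 CPM in PBS libraries 1 to 5. In AAV-GFP, it ran from 13.2 (library 2) over 16.5 to 20.9 CPM (library 6), and in AAV-miR-34b/c from 3.58 (library 5) over 8.05 to 9.25 CPM (library 1). Every AAV-miR-34b/c library was below every AAV-GFP library. Groups did not overlap for 1.38% of all genes tested in this comparison (0.767% higher and 0.616% lower). PBS was split. Its libraries 1, 2 and 4 lay within the range of AAV-GFP, its library 3 within that of AAV-miR-34b/c, and its library 5 between both ranges.

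The mean level of *Vcl* was 14.8 ± 4.93, 16.3 ± 2.77 and 7.67 ± 1.94 CPM (SD, n = 5, 7 and 7). AAV-miR-34b/c was 2.14-fold lower than AAV-GFP, at -1.09 on the log2 scale (standard error 0.21). Against PBS it was -0.95 (0.27), and for AAV-GFP against PBS it was 0.13 (0.23). Without 1 library, the log2 fold change between the TAA groups ran from -1.15 to -0.98. Against PBS it ran from -1.10 to -0.83, and the call was lost without PBS 1 (-0.86) or PBS 4 (-0.86), which form one of the close pairs. With the mitochondrial share as a covariate, the log2 fold change between the TAA groups was -1.09, and among the libraries of high share alone (AAV-GFP 1 to 4, AAV-miR-34b/c 3 to 7) it was -1.06. Against PBS, it was -0.84 (0.33) with the covariate, no longer called.

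Summed markers of matrix-producing and surface-lining cells correlated with *Vcl* over all libraries, and less so within groups. The summed level of the 14 markers of hepatic stellate cells and myofibroblasts was 376 to 575 CPM in PBS, 429.8 to 546 CPM in AAV-GFP and 270.0 to 501 CPM in AAV-miR-34b/c, with no marker at 0 in a whole group. Over the libraries, *Vcl* had r = 0.72 with this sum, and 0.37 with group means removed. For the 6 mesothelial markers, the summed level was 6.49 to 12.6, 9.22 to 22.2 and 3.99 to 8.05 CPM, with r = 0.74 and 0.37. For the monocyte and neutrophil list, r was -0.38 over the libraries and 0.59 with group means removed. Most of the stellate cell sum was *Dcn*, which encodes the matrix protein decorin, at means of 370 CPM in PBS, 317 CPM in AAV-GFP and 261 CPM in AAV-miR-34b/c. *Col1a1*, which encodes a chain of type I collagen, had 2.84 to 6.08, 14.03 to 55.4 and 5.48 to 8.78 CPM in the same order, so that it too was lower in every AAV-miR-34b/c library than in every AAV-GFP library. The stellate cell list did not move as one between the TAA groups. *Lrat* (12.2 and 13.9 CPM) and *Des* (1.43 and 1.61 CPM) had higher means in AAV-miR-34b/c than in AAV-GFP, whereas its other markers had lower means. The part of these cells in the level of *Vcl* was not tested.

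**Figure D2:**
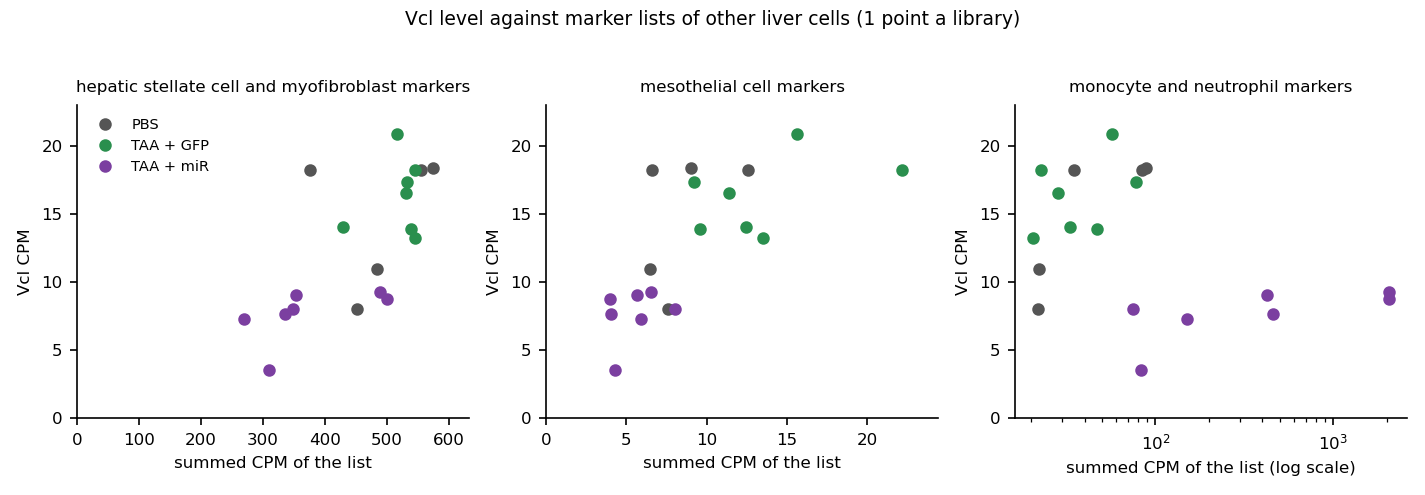
*Vcl* level (CPM) of each of the 19 libraries against the summed CPM of 3 marker lists, with the monocyte and neutrophil list on a log axis, coloured by group. The 7 AAV-miR-34b/c libraries lie between 3.58 and 9.25 CPM of *Vcl* at stellate cell sums of 270.0 to 501 CPM and at neutrophil sums of 75.3 to 2065 CPM.

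*Myl12a* (chr17:70993656-71002878, minus strand) encodes a regulatory light chain of non-muscle myosin II, whose phosphorylation turns on contraction. Its level was 145, 149.8, 101, 169.7 and 141 CPM in PBS libraries 1 to 5. It ran from 84.1 over 116 to 159 CPM in AAV-GFP and from 47.8 over 84.9 to 156 CPM in AAV-miR-34b/c. The groups overlapped in every comparison. The log2 fold change was -0.28 (standard error 0.17) for AAV-GFP against PBS, -0.30 (0.23) between the TAA groups and -0.58 (0.25) for AAV-miR-34b/c against PBS. Without 1 library, the last ran from -0.74 to -0.46. The neighbouring paralogue *Myl12b*, which encodes an almost identical light chain, is described with the pathway genes.

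**Figure D3:**
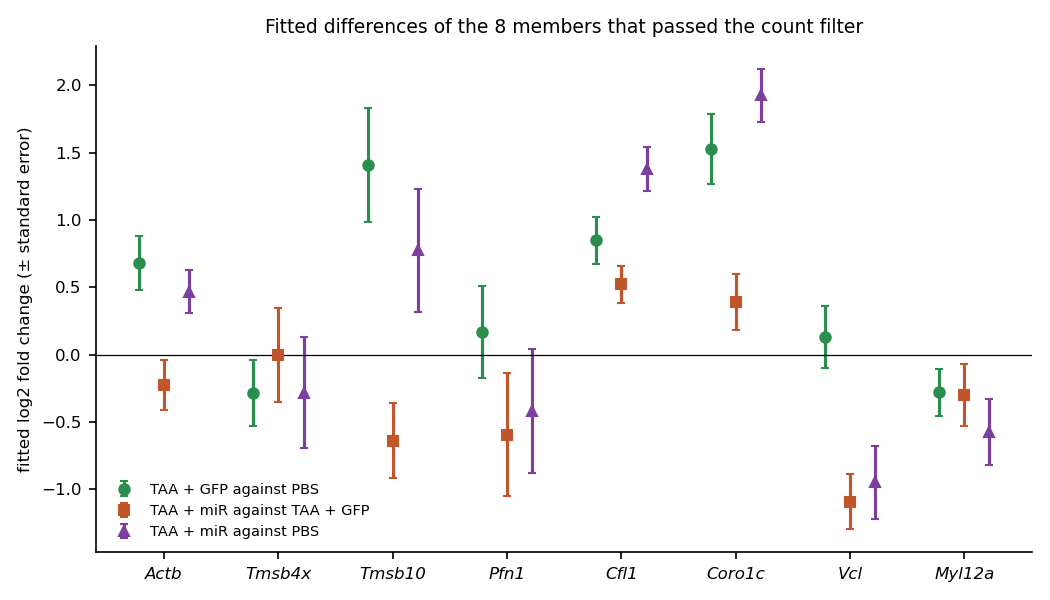
Fitted log2 fold change ± standard error of the 8 genes that passed the filter, in the 3 comparisons. *Cfl1* and *Coro1c* have the highest values for AAV-miR-34b/c against PBS (1.38 and 1.93), and *Vcl* has the lowest for AAV-miR-34b/c against AAV-GFP (-1.09).

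*Tmsb4x*, *Pfn1* and *Myl12a* varied together from library to library. Over the 19 libraries, r of log2 CPM was 0.77 for *Tmsb4x* with *Pfn1*, 0.87 for *Tmsb4x* with *Myl12a* and 0.79 for *Pfn1* with *Myl12a*. With group means removed, the values were 0.77, 0.90 and 0.79. All 3 genes were high in AAV-miR-34b/c libraries 1 and 2 and low in libraries 3 to 7 of that group. *Tmsb4x* and *Myl12a* were lower where the mitochondrial share was higher (r = -0.76 and -0.79), *Pfn1* less so (-0.47), whereas *Actb*, *Cfl1* and *Coro1c* had positive values (0.77, 0.67 and 0.72). Within groups, *Tmsb4x* also went with the stellate cell list (r = 0.86), the monocyte and neutrophil list (0.83) and the hepatocyte list (0.73). These lists and the mitochondrial share moved together with the same libraries, and their parts were not tested.

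When AAV-miR-34b/c libraries 1 and 2 were left out together, as an alternative chosen after these values were seen, the fit called 5 of the 8 genes between the TAA groups in place of 2, and 7.54% of all genes tested in place of 3.36%. The log2 fold change of *Tmsb4x* was then -0.83 (standard error 0.21), against -0.01 (0.35) with all libraries. Against PBS, the fit called 7 of the 8 and 42.6% of all genes tested without these libraries, and *Pfn1* moved from -0.42 (0.46) to -1.38 (0.30).

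**Figure D4:**
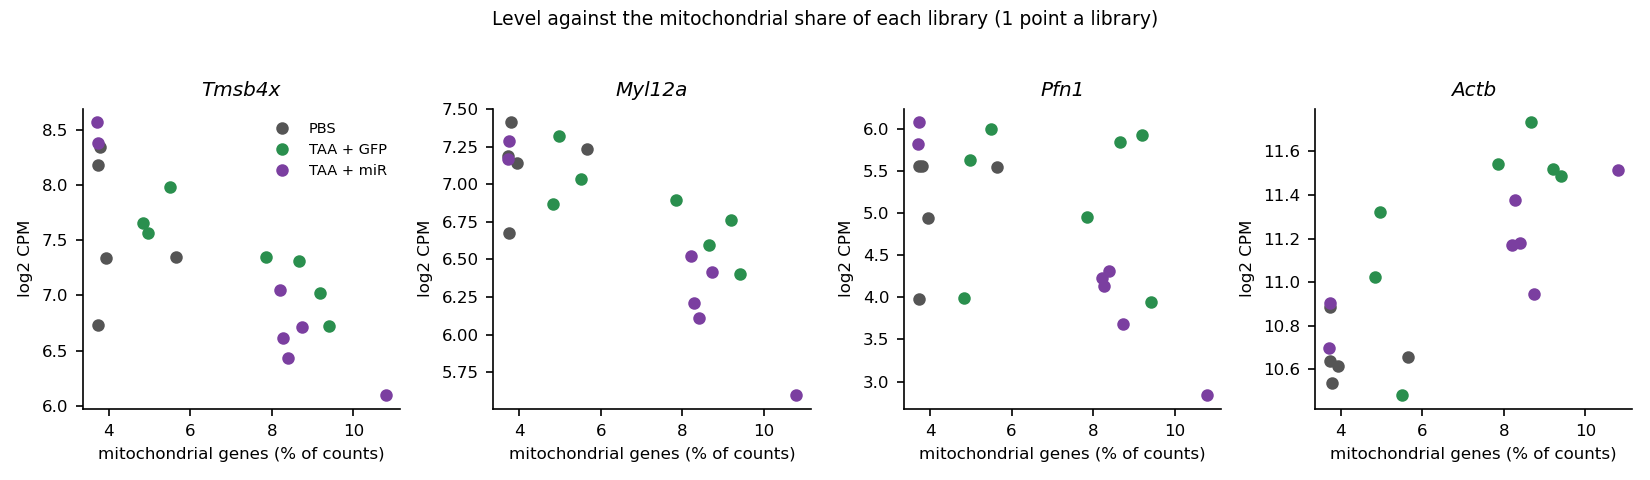
Log2 CPM of *Tmsb4x*, *Myl12a*, *Pfn1* and *Actb* against the share of counts on mitochondrial genes (%), 1 point a library, coloured by group. *Tmsb4x* and *Myl12a* lie lower at higher shares (r = -0.76 and -0.79 with the log2 share), and *Actb* lies higher (r = 0.77).

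The genes whose pattern was most like that of the 8 were found by the correlation of log2 CPM with the mean of the 8 z-scored genes over the 19 libraries. These were *Cd63* (r = 0.90), which encodes a tetraspanin of late endosomes, *Cd36* (0.86), a fatty acid and scavenger receptor, *Rnf181* (0.86), *Enpp3* (0.85) and *Emp1* (0.84). With group means removed, they were *St6gal1* (0.87), *Sh3gl1* (0.84), *Enpp3* (0.84), *Gm27216* (0.84) and *Vim* (0.83), which encodes vimentin of intermediate filaments. Single members followed the mean of the 8 less closely, although each member is itself part of that mean. Their r ran from 0.22 (*Cfl1*) to 0.62 (*Pfn1*) over all libraries and from -0.02 (*Cfl1*) to 0.74 (*Pfn1*) with group means removed.

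The vectors carried miR-34b and miR-34c, and a microRNA pairs with messenger RNAs through its seed, bases 2 to 8. The mature sequence of miR-34b-5p (RefSeq, GRCm38.p6, chr9:51103610-51103632, minus strand) is shown with the seed in capitals.
mmu-miR-34b-5p: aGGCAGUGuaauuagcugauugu

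The 7 bases that pair with this seed, CACTGCC, were searched in the longest annotated 3′ UTR of each gene (GENCODE, GRCm38). They occur in 3 of the 9 genes, namely *Cfl1*, *Coro1c* and *Vcl*. Among all genes tested between the TAA groups with an annotated 3′ UTR, 17.3% (1581 of 9117) hold a match, at a median UTR length of 1192 bases. The UTRs of *Cfl1*, *Coro1c* and *Vcl* are longer than that (1708, 1913 and 1943 bases), and those of the other 6 genes are shorter (271 to 956 bases). The 4 matches are shown in capitals within 30 bases, in the direction of the transcript.
Cfl1, bases 848 to 854 of the UTR, chr19:5494330-5494359, plus strand: ttggctcacccCACTGCCacgttcagaggt
Coro1c, bases 70 to 76, chr5:113844261-113844290, minus strand: agagagggagaCACTGCCatttggagacat
Coro1c, bases 675 to 681, chr5:113843656-113843685, minus strand: gacccaccacaCACTGCCcccattccattg
Vcl, bases 753 to 759, chr14:21032475-21032504, plus strand: ctatgctttgtCACTGCCagtagatgtctg

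For AAV-miR-34b/c against AAV-GFP, these genes had log2 fold changes of 0.52 (*Cfl1*), 0.39 (*Coro1c*) and -1.09 (*Vcl*). One of the 3 genes with a match was thus lower and the other two were not. A match is a run of letters, and pairing at these positions was not tested.

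Vinculin and the actins are textbook targets of the serum response factor SRF, which binds the CArG box and senses the pool of free actin through its cofactors. The 250 bases before the annotated start were available for 8 of the 9 genes (RefSeq, GRCm38.p6) and were searched for the CArG box on both strands. A match was found in *Vcl*, 227 to 218 bases before the start, and in *Actg1*, 90 to 81 bases before it. Over all genes, 1.62% (439 of 27025) hold one in this window, and among the genes of the pathway lists described here 7.25% (10 of 138). The windows of the 3 genes whose groups separated are shown, with the CArG box in capitals.
Vcl, chr14:20929148-20929397, plus strand: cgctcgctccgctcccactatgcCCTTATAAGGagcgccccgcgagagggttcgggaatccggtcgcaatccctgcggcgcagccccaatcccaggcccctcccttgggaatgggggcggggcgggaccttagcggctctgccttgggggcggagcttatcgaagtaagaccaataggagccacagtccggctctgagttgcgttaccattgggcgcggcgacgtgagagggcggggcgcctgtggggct
Cfl1, chr19:5490205-5490454, plus strand: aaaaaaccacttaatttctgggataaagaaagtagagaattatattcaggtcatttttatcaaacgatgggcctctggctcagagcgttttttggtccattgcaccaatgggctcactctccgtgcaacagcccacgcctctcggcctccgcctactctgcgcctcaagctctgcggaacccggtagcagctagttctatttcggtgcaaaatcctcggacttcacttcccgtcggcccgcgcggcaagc
Coro1c, chr5:113908707-113908956, minus strand: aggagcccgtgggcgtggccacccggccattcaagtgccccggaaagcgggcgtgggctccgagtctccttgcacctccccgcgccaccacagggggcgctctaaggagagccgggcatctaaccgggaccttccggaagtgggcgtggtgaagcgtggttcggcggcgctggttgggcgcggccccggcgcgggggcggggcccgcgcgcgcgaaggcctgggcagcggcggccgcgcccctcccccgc

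The letters GGGCGG, on either strand, occur in 35.4% of genes in this window. Counting only matches that do not overlap each other, they occur 3 times in the window of *Vcl*, once in that of *Coro1c* and not in that of *Cfl1*. The letters TATAAA, read on the gene's strand, occur in none of the windows of the 8 genes and in 8.94% of all genes. TGAGTCA or TGACTCA, the letters of an AP-1 site, occur in the window of *Myl12a* and in 5.16% of all genes. *Srf* itself had 6.69, 8.42 and 11.3 CPM on average in PBS, AAV-GFP and AAV-miR-34b/c, with edgeR adjusted p of 0.528 for AAV-GFP against PBS, 0.498 between the TAA groups and 0.106 for AAV-miR-34b/c against PBS.

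The wider actin cytoskeleton was read from 12 lists of 166 genes that hold none of the 9 genes. Between AAV-GFP and PBS, 18 of 122 tested genes were called higher and 1 lower, which is 15.6% called against 12.7% of all genes tested. Of the 18, *Fscn1* for the bundling protein fascin (2.06 CPM on average in PBS and 6.04 CPM in AAV-GFP) and *Cnn2* for calponin 2 (2.35 and 5.93 CPM) passed the filter only through AAV-GFP, where they were high, and no weight is put on their calls. Of 20 tested genes for non-muscle myosin, tropomyosins and their regulators, 8 were called higher, or 7 without *Cnn2*. They included *Mylk*, the kinase that phosphorylates myosin light chains (46.7 ± 9.27 to 91.0 ± 26.8 CPM, SD, n = 5 and 7; log2 fold change 0.97, standard error 0.21, edgeR adjusted p = 0.00627), and *Tpm1*, a tropomyosin that coats filaments (0.74, 0.17, adjusted p = 0.00945). *Myl12b* rose as well (0.67, 0.16, adjusted p = 0.0120, also edgeR), from 22.6 to 35.9 CPM.

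Of 18 tested bundling and crosslinking genes, 6 were called higher, or 5 without *Fscn1*, among them *Lasp1* (log2 fold change 1.20, edgeR adjusted p = 0.00139), *Palld* for the bundle protein palladin (1.11, adjusted p = 0.00213) and *Actn4* for α-actinin 4 (0.82, adjusted p = 0.0120). *Lasp1* and *Mylk* were higher in 7 of 7 AAV-GFP libraries than in all of PBS. Of 7 capping and severing genes, 2 rose, *Gsn* for gelsolin (0.69) and *Flii* for flightless I (1.19, adjusted p = 0.00520). Of 22 focal adhesion genes, *Csrp1* rose (0.89, adjusted p = 0.0394) and *Itgav*, the integrin αV chain, fell (-0.75, adjusted p = 0.0413), each called in 5 of 12 fits without 1 library. The formin gene *Diaph1* rose (0.88, adjusted p = 0.0221). In the Arp2/3 list, 7 of 19 tested genes had a positive log2 fold change, with a median of -0.17, and this list was not tested against the others.

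These calls depended on how the mitochondrial share of the libraries was treated. The share itself differed by group, at 3.73% to 5.65% in PBS and 4.83% to 9.41% in AAV-GFP. Its part and that of the group can thus not be fully told apart, and fewer libraries also leave fewer calls. With the share as a covariate, or with AAV-GFP libraries 5 to 7 alone against PBS, edgeR called 0 pathway genes, with 17 of 122 and 18 of 121 at an unadjusted p under 0.05, respectively. Of all genes tested, the same fits called 1.40% and 1.88%, with 1314 of 9522 and 1280 of 9571 at an unadjusted p under 0.05. The log2 fold change of *Lasp1* was then 0.66 and 0.74. With close pairs summed 1 pathway gene was called, without PBS 1 there were 12, without PBS 4 there were 10, and without AAV-GFP 6 there were 29. Of all genes tested, these fits called 2.26%, 7.46%, 7.11% and 19.8%, in this order.

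In AAV-miR-34b/c against AAV-GFP, 3 of 118 tested pathway genes were called higher and 2 lower, which is 4.24% against 3.36% of all genes tested. Of these 5, *Fhod1* and *Gsn* passed the filter only through the group where they were high, and without them 2 were higher and 1 lower. *Arpc1b*, a subunit of the Arp2/3 complex that starts filament branches and is rich in leukocytes, rose from 81.1 ± 14.3 to 153 ± 14.3 CPM (SD, n = 7 and 7; log2 fold change 0.90, standard error 0.13, edgeR adjusted p = 0.000698). *Gsn*, which severs and caps filaments and is rich in stromal cells, averaged 18.3 ± 2.54 CPM in AAV-GFP and 6.32 ± 2.24 CPM in AAV-miR-34b/c. In AAV-miR-34b/c, 6 of 7 libraries reached the filter's level for *Gsn*, 1 fewer than the filter asks for. It passed the filter only with AAV-GFP, where it was high, so no weight is put on its call. The groups did not overlap for *Arpc1b*, and it was called in 14 of 14 fits without 1 library and with the mitochondrial share as a covariate. *Pls3* for the bundling protein plastin 3 rose (0.59, adjusted p = 0.0195). *Sorbs2*, an adaptor that binds vinculin, fell (-0.69, adjusted p = 0.0275), in 6 of 7 libraries below all of AAV-GFP.

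The calls of *Pls3* and *Sorbs2* were less firm than that of *Arpc1b*, in 12 and 9 of 14 fits without 1 library. The third gene counted as higher, the formin gene *Fhod1*, averaged 3.67 CPM in AAV-GFP and 7.40 CPM in AAV-miR-34b/c. It passed the filter through AAV-miR-34b/c, where it was high, so no weight is put on its call. The count of calls went to 2 without AAV-miR-34b/c 3 or 4, to 3 without AAV-GFP 1 or 2 or AAV-miR-34b/c 1, and to 12 without AAV-miR-34b/c 1 and 2 together. Of all genes tested, these fits called 2.29%, 2.3%, 2.23%, 2.53%, 3.14% and 7.54%, in this order. The summed monocyte and neutrophil list was 20.5 to 77.7 CPM in AAV-GFP and 75.3 to 2065 CPM in AAV-miR-34b/c, and these ranges overlapped. *Arpc1b* ran from 69.3 to 110.2 CPM and from 137.5 to 169.6 CPM in the same order, without overlap. The summed stellate cell list was 429.8 to 546 CPM in AAV-GFP and 270.0 to 501 CPM in AAV-miR-34b/c, and these ranges overlapped. *Gsn* ran from 14.9 to 21.9 CPM and from 3.05 to 8.91 CPM in the same order, without overlap. The parts of both lists were not tested.

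**Figure D5:**
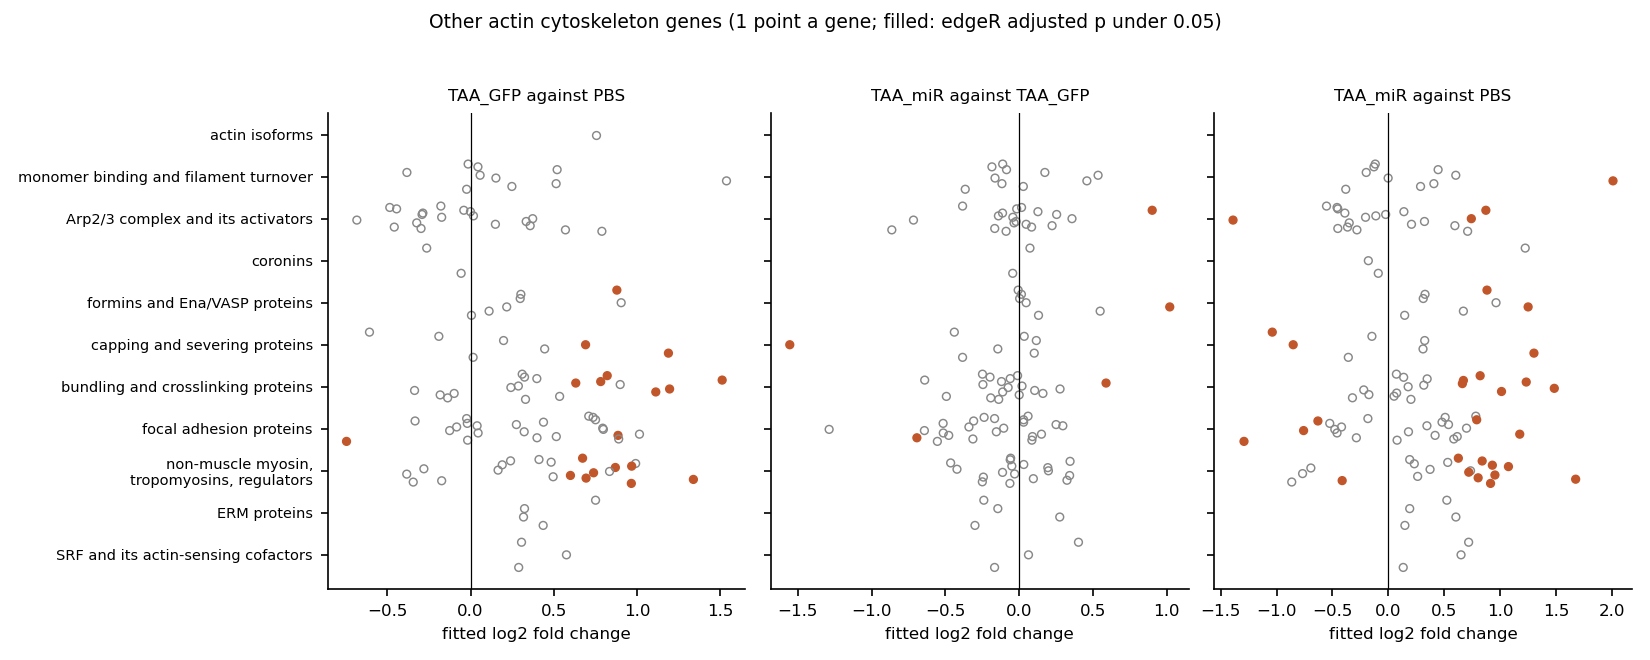
Fitted log2 fold change of each tested gene of the pathway lists drawn, in the 3 comparisons, 1 point a gene, filled where the edgeR adjusted p was under 0.05. Filled points lie to the right among bundling and myosin genes in both comparisons with PBS (6 and 8 genes, then 6 and 9), among them *Fscn1* and *Cnn2*, which passed the filter only through the TAA groups, and *Cnn3* lies to the left (-0.41) for AAV-miR-34b/c against PBS.

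Between AAV-miR-34b/c and PBS, 26 of 120 tested pathway genes were called higher and 7 lower, which is 27.5% against 21.9% of all genes tested. Of these 33, 6 passed the filter only through the group where they were high, among them *Cnn2*, *Fhod1*, *Limk2*, *Wipf1* and *Capza1*, and without them 22 were higher and 5 lower. Of 19 tested myosin and tropomyosin genes, 9 were called higher, or 8 without *Cnn2*, and 1 lower, and *Tpm3* had the smallest adjusted p among them (45.7 ± 6.81 to 88.4 ± 9.83 CPM, SD, n = 5 and 7; log2 fold change 0.95, standard error 0.15, edgeR adjusted p = 0.000612). Of 17 bundling genes, 6 rose, with *Lasp1* at 1.48 (adjusted p = 0.000195), *Pls3* at 1.23 (adjusted p = 0.000758) and *Actn4* at 0.82 (adjusted p = 0.000925). *Arpc1b* rose by 0.87 (adjusted p = 0.000925). In the turnover list, 1 of 10 tested genes was called, *Limk2*, a kinase that inactivates cofilin by phosphorylation. It averaged 1.26 CPM in PBS (at most 2.65) and 5.07 CPM in AAV-miR-34b/c. Since it passed the filter on low counts only through the group where it was high, and was tested in 7 of 12 fits without 1 library, no weight is put on its call.

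Focal adhesion genes went both ways. *Itgav* fell from 23.2 ± 7.07 to 9.54 ± 3.22 CPM (SD; log2 fold change -1.29, edgeR adjusted p = 0.00297), and *Ilk* (-0.63, adjusted p = 0.0343) and *Tns3* (-0.76, adjusted p = 0.0464) fell too, whereas *Pxn* for paxillin (0.79) and *Lpp* (1.18) rose. With 1 library left out, *Itgav*, *Pxn* and *Lpp* were called in 12 of 12 fits, *Ilk* in 5 and *Tns3* in 2. Among capping genes, *Gsn* (-0.85, adjusted p = 0.0381) fell and *Flii* rose (1.30, adjusted p = 0.00390), called in 5 and 12 of 12 such fits. *Capza1* averaged 8.24 CPM in PBS and 4.03 CPM in AAV-miR-34b/c, and no weight is put on its call. *Wipf1*, which holds the Arp2/3 activators WASP and N-WASP, averaged 7.60 CPM in PBS and 2.92 CPM in AAV-miR-34b/c. It is among the genes counted as lower, but it passed the filter through PBS, where it was high, and no weight is put on its call. The formin gene *Diaph1* rose (0.88, adjusted p = 0.0115) and so did *Tpm1* (0.72, adjusted p = 0.00250). With the mitochondrial share as a covariate, 16 pathway genes rose and 2 fell, which is 15% called against 12.6% of all genes tested. *Lasp1*, *Tpm3*, *Pls3*, *Arpc1b*, *Actn4*, *Tpm1*, *Itgav* and *Tns3* were among those called, whereas *Wipf1*, *Ilk*, *Capza1*, *Gsn*, *Flii* and *Diaph1* were not.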

How the data were processed

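Liver RNA in 19 libraries was sequenced with a 3′ mRNA kit (QuantSeq, single-end reads of 100 bp). The authors deposited whole-number counts per gene for 31053 genes, and their processing notes name STAR and mm10. The counting tool and its strand setting are not given in the sources used here.

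From the deposited counts, pairwise fits used edgeR 4.0.16 in R 4.3.3 (TMM scaling, filterByExpr at 10 counts per library and 15 in total, quasi-likelihood test). P-values were adjusted by Benjamini-Hochberg over all genes tested, with a threshold of 0.05. They measure the spread between these samples, which may be partly technical. Log2 CPM used a prior count of 2. Positions are those of GENCODE for GRCm38, and promoter and microRNA sequences are from RefSeq. The fits were tested on simulated counts of independent libraries with the same dispersion for every gene. That test did not cover the close pairs or the uneven mitochondrial share of the real libraries.

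The 9 genes and all lists were chosen with earlier results of these data known, so no p is printed for the 9 and their calls support nothing. Of the pathway genes called, the text names the 6 of lowest adjusted p among those higher and among those lower and the leading gene of each list, and the 5 genes most like the set; *Srf*, *Myl12b*, *Pxn*, *Lpp* and a few others were named after their values were seen. Alternatives were no filter, at least 10 counts in every library, other scalings, DESeq2 1.42.0, limma 3.58.1 voom, 1 fit of all groups, a replicate block, close pairs summed, and each library left out. The mitochondrial share as a covariate, libraries on 1 side of a 6.5% share, and AAV-miR-34b/c libraries 1 and 2 left out were chosen after seeing the data. The values of 1 pathway list are not reported here by themselves, and its genes remain in the pathway counts.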

Additional observations from a re-analysis of the deposited data

Results flagged for a closer look

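Of 60 sets of 1 value in 1 group examined, 5 held a library far from the others by Dixon's criterion, and chance gives about 1 in 20. For *Cfl1*, PBS library 3 was the highest of PBS, at 5.695 log2 CPM against 5.204 for the next. Also for *Cfl1*, AAV-miR-34b/c library 2 was the lowest of its group, at 6.187 against 6.593. For *Vcl*, AAV-miR-34b/c library 5 was the lowest of its group, at 2.075 against 2.991, on 10 counts. The total count of AAV-GFP library 5, 4383805, was above the next of its group, 3239809. The summed CPM of stellate cell and myofibroblast markers in AAV-GFP library 3, 429.8, was below the next of its group, 516.1.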

How the results depend on the processing

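Few counts limit *Tmsb10*, *Actg1* and *Vcl*, and close pairs of libraries limit every comparison. The cause of the shifts given here was not tested, except that summing pairs or dropping libraries leaves fewer samples. In the comparisons where a gene of the set was called, its log2 fold change kept its sign in every alternative run.

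Between AAV-GFP and PBS, 1212 genes, 19 pathway genes and 4 genes of the set were called. The voom fit called 2687 genes and 39 pathway genes. With close pairs summed, the counts were 227, 1 and 2. With the mitochondrial share as a covariate, they were 133, 0 and 1, and in libraries under 6.5% they were 180, 0 and 0. In edgeR, 17 and 18 pathway genes, and 3 genes of the set in the latter fit, then had an unadjusted p under 0.05, and DESeq2 on all libraries called 26. With 1 library left out, the ranges were 689 to 1859, 10 to 29 and 2 to 4. The lowest was without PBS 4, with 728 without PBS 1 and 806 without AAV-GFP 3, and the highest was without AAV-GFP 6.

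In AAV-miR-34b/c against AAV-GFP, 311, 5 and 2 were called. Scaling by library size gave 624, 8 and 1, DESeq2 542 genes, and voom 813 genes and 10 pathway genes. No filter on low counts gave 1 gene of the set. Close pairs summed gave 87, 2 and 1. The mitochondrial covariate gave 824 genes and 10 pathway genes, and libraries over 6.5% gave 614 and 8. Without AAV-miR-34b/c 1 and 2 together, the counts were 720, 12 and 5. With 1 library left out, the ranges were 209 to 344, 2 to 6 and 1 to 2.

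Between AAV-miR-34b/c and PBS, 2037, 33 and 4 were called. The voom fit gave 3839, 56 and 7, close pairs summed 331, 8 and 2, the mitochondrial covariate 1172, 18 and 2, and libraries under 6.5% gave 642, 10 and 2. Without AAV-miR-34b/c 1 and 2 together, the counts were 3878, 60 and 7. With 1 library left out, the ranges were 1267 to 2695, 23 to 45 and 2 to 5, with 1328 genes without PBS 1 and the lowest without PBS 4.

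Library-size scaling turned the split between the TAA groups from 180 higher and 131 lower to 119 and 505, and that against PBS for AAV-miR-34b/c from 1131 and 906 to 730 and 1616. It moved the median log2 fold change of all genes to -0.20 and -0.13.

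Replicate numbers did not pair the libraries, since same-numbered libraries correlated at -0.0868 to 0.223, -0.284 to 0.207 and -0.233 to 0.277, and 2 of 5, 1 of 7 and 0 of 5 correlated best with their own number. With the replicate block, 3136 genes and 54 pathway genes were called between AAV-GFP and PBS. Between the TAA groups, the block gave 142, 2 and 1, and for AAV-miR-34b/c against PBS it gave 945, 15 and 2.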
